A study of Mus musculus with 16 samples.

Results

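The genes described here are 10 nuclear pseudogenes whose sequences match protein-coding genes of the mitochondrial genome, out of 23179 genes listed in an RNA-Seq table of mouse mammary adipose tissue. They are Gm10925, Gm29216, Gm28661, Gm28437, Gm28439, Gm13340, Gm10222, Gm28438, Gm13339 and Gm11407. They were chosen by the number of reads assigned to them, so their overall levels and their share of the reads are given as a description, and only differences between groups in each copy were tested. All 10 passed the filter on low values. In the table, 0 genes carry a symbol with the mt- prefix of the mitochondrially encoded genes.

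The samples are from female wild-type C57BL/6N mice (C57BL/6NCrl in the study's methods), and the labels used here do not give their age. CON-LFD mice stayed on the control diet D12450J and were never obese. The other mice became obese on the high-fat diet D12492, with 60% fat. DIO-HFD mice stayed on this diet, DIO-LFD mice were switched to a low-fat diet, and DIO-VSG mice had vertical sleeve gastrectomy, a bariatric operation that removes part of the stomach, and a low-fat diet. Mice without the gastrectomy had sham surgery. Every mouse, controls included, carried a tumor of E0771 mouse mammary cancer cells, injected orthotopically into a mammary fat pad 22 weeks after the first randomization, and RNA was taken from the contralateral tumor-free pad. Each group has 4 libraries, each from a different mouse by its animal number, 16 in all.

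Total reads per library ranged from 46907377 to 57610899. Although the labels name E0771 as cell line, defining adipocyte genes were high in all 16 libraries, from 30428 to 123530 normalized counts for Adipoq and from 27815 to 102756 for Plin1. The libraries were uneven in other cells. Summed B cell markers ranged from 1474 to 272023 normalized counts (12 of 12 markers listed, none at 0 in a whole group), and summed skeletal muscle markers from 559 to 167595 (12 of 12 listed), the latter in DIO-LFD replicate 4. Summed markers of red blood cells and their precursors (7 of 8 listed, Ahsp not being listed) reached 464011 in DIO-LFD replicate 1. They were between 18123 and 55821 in the other libraries.

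Mitochondria keep a small circular genome of their own. It encodes 13 subunits of the oxidative phosphorylation (OXPHOS) complexes that couple the oxidation of fuel to ATP synthesis, together with 2 ribosomal RNAs and 22 transfer RNAs, and the remaining subunits of these complexes are encoded in the nucleus. The genome is transcribed as long precursors that are cut into single messages, and mitochondrial RNA is abundant in most tissues. Pieces of the mitochondrial genome have also been copied into the nuclear chromosomes during evolution, where they are annotated as pseudogenes. In adipose tissue, mitochondria are particularly plentiful in thermogenic (brown and beige) fat cells.

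In the GENCODE M21 annotation (GRCm38), 7 of the 10 copies sit in a single block of chromosome 1, 2 on chromosome 2 and 1 on chromosome 4. Every copy is annotated as a single exon. The block spans 4663 bases on the minus strand (chr1:24611535-24616197). It holds, in the order of the mitochondrial genome, Gm29216 (mt-Co1, its 3′ part), Gm28661 (mt-Co2), Gm10925 (mt-Atp6), Gm28437 (mt-Co3), Gm28438 (mt-Nd3), Gm10222 (mt-Nd4l) and Gm28439 (mt-Nd4, its 5′ part). Spacing was kept as well as order: the position in the block plus the position in the mitochondrial genome came to 24622578 for the first 5 of these genes and to 24622577 for Gm10222 and Gm28439, a shift of 1 base over the block. Gm13340 (chr2:22588103-22589647, minus strand) matches the whole of mt-Co1, and Gm13339 (chr2:22590024-22590533, minus strand) matches bases 529 to 1038 of mt-Nd2. Gm11407 (chr4:80002331-80003388, plus strand) matches bases 748 to 1803 of mt-Nd5. It is the only one of the 10 annotated as a processed pseudogene, and the other 9 are annotated as unprocessed.

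The copies fell into 2 classes by how closely they match. Gm10925, Gm28661, Gm28437, Gm10222 and Gm28439 were identical to their mitochondrial gene over 678, 681, 783, 294 and 876 bases. Gm28438 differed from mt-Nd3 at 1 of 345 bases, and Gm29216 differed from mt-Co1 at 1 of 483 aligned bases. The copies outside chromosome 1 were more diverged, with 97.6% identity for Gm13340 (37 mismatches in 1545 bases), 96.7% for Gm13339 (17 in 510) and 92.3% for Gm11407 (79 in 1058). Each sequenced read covered 76 bases. Of all 76-base windows of the copy, 100% were found unchanged in the mitochondrial gene for the 5 identical copies, 98.9% for Gm28438, 96.9% for Gm29216, 14.5% for Gm13340, 12.4% for Gm13339 and 2.0% for Gm11407. A read from such a window has the same sequence whether its RNA came from the nucleus or the mitochondrion, so for these windows the 2 origins cannot be told apart from the read.

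Windows of 76 bases show this range, and for the diverged copies the window with the most mismatches was taken. Capitals mark the bases at which copy and mitochondrial gene differ. All sequences are GENCODE M21 transcripts (GRCm38) written 5′ to 3′ on the strand of the gene. Gm10925 (chr1:24614576-24614651, minus strand) and mt-Atp6 (chrM:7927-8002, plus strand) share their first 76 bases and have no capitals. Gm28661 (chr1:24615044-24615119, minus strand) is identical to mt-Co2 (chrM:7459-7534, plus strand), and the same stretch is shown for a further copy of mt-Co2, Gm13341 (chr2:22587453-22587528, minus strand), because their levels are compared below. Gm13340 (chr2:22589114-22589189, minus strand) is shown with mt-Co1 (chrM:5786-5861, plus strand), and Gm11407 (chr4:80002486-80002561, plus strand) with mt-Nd5 (chrM:12644-12719, plus strand).
Gm10925 and mt-Atp6: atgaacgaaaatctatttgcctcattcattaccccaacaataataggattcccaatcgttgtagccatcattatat
Gm28661 and mt-Co2: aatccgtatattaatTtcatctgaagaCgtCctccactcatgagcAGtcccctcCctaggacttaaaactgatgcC
Gm13341: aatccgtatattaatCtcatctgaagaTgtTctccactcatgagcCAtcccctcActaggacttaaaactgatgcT
mt-Co1: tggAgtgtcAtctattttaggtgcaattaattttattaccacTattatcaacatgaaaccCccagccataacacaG
Gm13340: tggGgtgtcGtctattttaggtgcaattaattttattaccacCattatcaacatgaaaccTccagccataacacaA
mt-Nd5: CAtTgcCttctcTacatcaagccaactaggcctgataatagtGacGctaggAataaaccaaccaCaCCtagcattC
Gm11407: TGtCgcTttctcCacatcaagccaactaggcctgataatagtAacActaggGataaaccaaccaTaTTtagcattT

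The 10 copies took up a large part of the sequencing. Their share of all listed reads was 7.93%, 11.2%, 4.18% and 5.37% in CON-LFD replicates 1 to 4, and 2.23%, 2.36%, 2.50% and 2.82% in DIO-HFD. It was 3.88%, 5.72%, 3.73% and 5.14% in DIO-LFD and 4.52%, 3.89%, 8.08% and 5.69% in DIO-VSG. All 4 DIO-HFD libraries were below all 12 others, and the remaining groups overlapped. Group means were 7.17% ± 3.11 in CON-LFD, 2.48% ± 0.254 in DIO-HFD, 4.62% ± 0.970 in DIO-LFD and 5.55% ± 1.85 in DIO-VSG (SD, n = 4 each). Counting error was small beside this spread, the widest 95% Wilson interval of a library being 0.017 percentage points. In bulk tissue, fewer cells of a type and less RNA per cell cannot be told apart. Gm10925 ranked between the second and the eighth most abundant row of every library, and 6 copies were among the top 20 rows in 15 libraries, 7 in CON-LFD replicate 2.

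**Figure D1:**
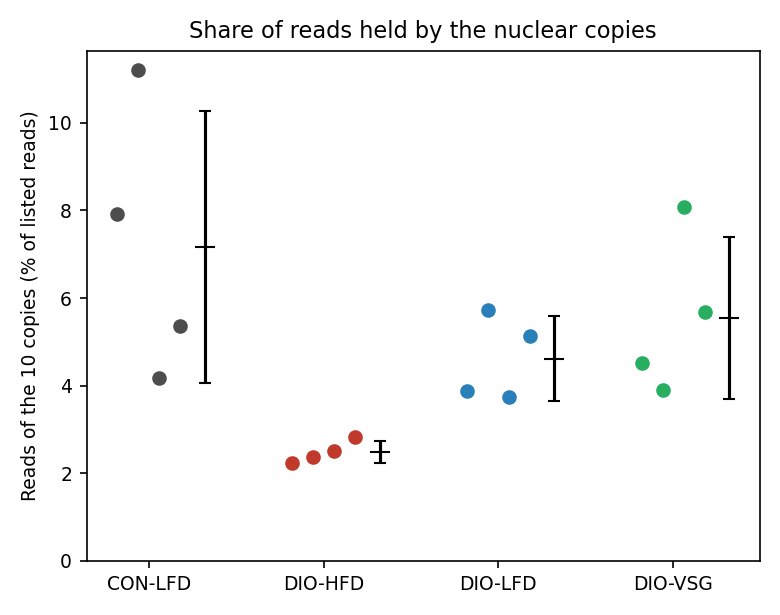
Share of all listed reads assigned to the 10 copies (y axis, percent) in each library (points) of the 4 groups (x axis), with the group mean and SD in black (n = 4). The 4 DIO-HFD libraries sit between 2.23% and 2.82%, below every other library, of which the lowest is at 3.73%.

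The copies were compared with each other per length, as normalized counts per kilobase averaged over the 16 libraries. Gm29216 (967740) and Gm10925 (917212) were highest, followed by Gm28661 (569806), Gm28437 (472920), Gm28439 (369691), Gm10222 (218898), Gm13340 (202539), Gm28438 (102144), Gm13339 (54654) and Gm11407 (14983). Neighbors in this order had overlapping ranges over the libraries, since each copy varied several-fold between libraries (Gm10925 from 351810 to 2150758, Gm11407 from 7006 to 35300). The 3 copies outside chromosome 1 were among the 4 lowest.

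Across the table, 15 listed genes matched a mitochondrial gene with at least 90% identity over at least 100 bases: the 10 copies and 5 others, Gm4076, Gm13341, Gm11410, Gm11408 and Gm11512. Where 2 of them cover the same stretch, their levels differed sharply for some pairs and little for the pair matching mt-Nd5. Gm13341 is 95.9% identical to mt-Co2, and Gm28661, which is 100% identical, covers 99.6% of the same stretch. Gm28661 was 1190 to 1779 times higher per kilobase than Gm13341 in the 16 libraries. Gm11512 (90.7% identity to mt-Co1, entirely within the stretch covered by Gm13340 and Gm29216) was at 2.18 to 17 normalized counts in all. By comparison, Gm13339 is the one listed match to its part of mt-Nd2, and with an identity (96.7%) close to that of Gm13341 it stood at 54654 per kilobase against 381. Gm13340 shares 483 of its 1545 bases with the closer copy Gm29216 and is the closest listed match for the remainder of mt-Co1. Gm29216 was 4.35 to 5.15 times higher per kilobase than Gm13340. For mt-Nd5, Gm4076 (95.2%) and Gm11407 (92.3%) overlap over 912 bases, and their ratio per kilobase was between 0.828 and 1.28. Gm11410 (mt-Cytb, 92.9%) and Gm11408 (mt-Nd6, 93.6%) have no closer listed match and were low, at 139 and 233 per kilobase. How the alignment and counting steps divided such reads was not tested.

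**Figure D2:**
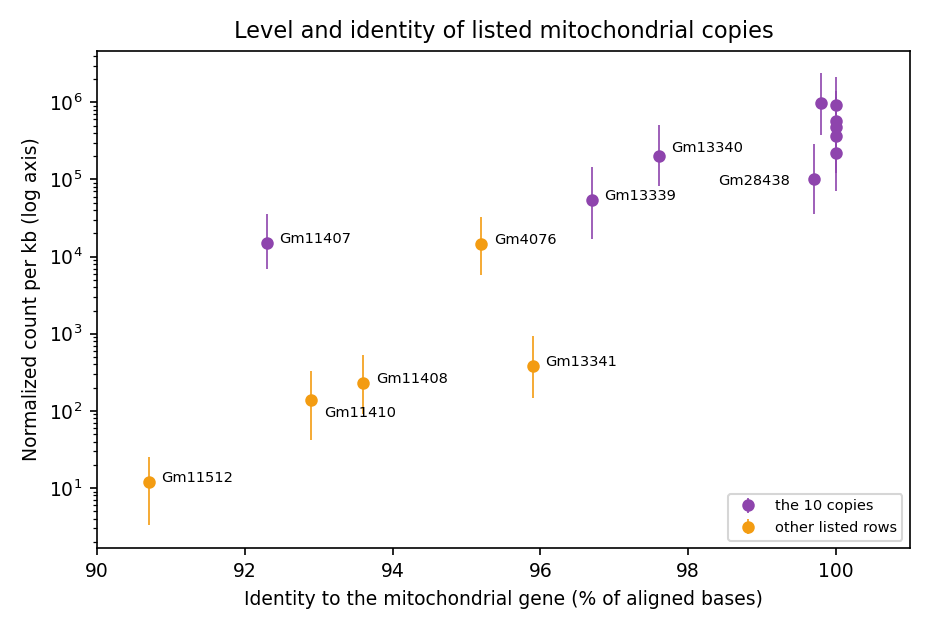
Mean normalized count per kilobase over 16 libraries (y axis, log scale, bars from the lowest to the highest library) against the identity of the listed gene to its mitochondrial gene (x axis, percent of aligned bases), for the 10 copies (purple) and the 5 other listed matches (orange). The 7 purple points at 99.7% to 100% are the chromosome 1 block, and Gm13341 at 95.9% lies far below Gm13339 at 96.7%.

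The 10 copies cover the mitochondrial genes unevenly. Of the 13 protein-coding genes, mt-Atp6, mt-Co1, mt-Co2, mt-Co3, mt-Nd3 and mt-Nd4l were covered over 99.1% to 100% of their length, mt-Nd4 over 63.6%, mt-Nd5 over 57.9%, mt-Nd2 over 49.1% and mt-Atp8, which overlaps the start of mt-Atp6, over 21.1%. The copies cover 0.0% of mt-Nd1, mt-Cytb, mt-Nd6 and both ribosomal RNA genes, so their summed share leaves these out. Of these, mt-Cytb (99.8%) and mt-Nd6 (100%) are covered by Gm11410 and Gm11408.

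The first comparison the design implies is persistent obesity against the lean control. DIO-HFD mice were the only ones still on the high-fat diet, so obesity and current diet cannot be told apart here. All 10 copies were lower in DIO-HFD than in CON-LFD, with no overlap between the groups for any of them, by 2.50-fold (Gm11407) to 4.23-fold (Gm13339). Lower with no overlap applied to 3% of the 21218 genes tested. None passed the adjusted threshold of 0.05 in limma (percent called over all genes 0.0377%, 8 genes), with adjusted p from 0.0676 to 0.167. All 10 had an unadjusted p under 0.05, where 7.66% of all genes were lower at that level. The median log2 fold change of the copies was -1.57, against 0.02 over all genes tested. The call depended on the libraries and on the model. Without CON-LFD replicate 3, which had the lowest share of its group, all 10 copies passed (limma adjusted p from 0.0142 to 0.0407), with 0.603% of all genes called. All 10 also passed with all 16 libraries kept and weighted by their estimated quality (limma adjusted p from 0.00133 to 0.00709), where 19.8% of all genes were called.

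Copies of complex I genes, which encode subunits of NADH dehydrogenase, came first in size, with 1 exception. Gm28439 (mt-Nd4) was at 658007, 791405, 260601 and 426835 normalized counts across the CON-LFD libraries and at 105842, 135702, 155834 and 150772 in DIO-HFD. The highest DIO-HFD library lay well under the lowest CON-LFD library (log2 change -1.86, SE 0.34, adjusted p = 0.0706 by limma). Gm10222 (mt-Nd4l), which is next to it in the block, was at 118627, 164954, 51741 and 82495 in CON-LFD and at 21145, 25943, 30559 and 29149 in DIO-HFD (-1.85, SE 0.33, limma adjusted p = 0.0676). These were almost parallel: the log2 ratio of Gm28439 to Gm10222 stayed between 2.24 and 2.47 in all 16 libraries. mt-Nd4l and mt-Nd4 are known to be carried on 1 shared message, but whether this bears on the ratio was not tested. The log2 ratio of Gm28661 (mt-Co2) to Gm28437 (mt-Co3) was as steady (SD 0.06, against 0.07 for Gm28439 and Gm10222). Gm28438 (mt-Nd3) was at 54344, 99405, 29046 and 44778 in the CON-LFD libraries and at 12478, 14256, 14545 and 15682 in the DIO-HFD libraries (log2 change -1.86, SE 0.34, adjusted p = 0.0676 by limma).

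Gm13339 (mt-Nd2) had the largest difference. It was at 60911, 74169, 23679 and 39604 in CON-LFD and at 8533, 11475, 11388 and 11869 in the DIO-HFD libraries (log2 change -2.08, SE 0.37, adjusted p = 0.0676 by limma). The exception was Gm11407 (mt-Nd5), the most diverged copy, which had the smallest difference of the 10 and the smallest standard error. Its values were 22414, 37348, 12850 and 17951 in CON-LFD and 7412, 7836, 10273 and 8286 in the DIO-HFD libraries (log2 change -1.32, SE 0.25, adjusted p = 0.0829 by limma). Here the gap was narrow, with the highest DIO-HFD library at 10273 and the lowest CON-LFD library at 12850. The place of Gm11407 depended on the scaling: with quantile normalization it was at -1.27 and Gm10925 had the smallest difference (-0.53), while Gm13339 stayed the largest (-2.02).

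Copies of complex IV genes, which encode the catalytic core of cytochrome c oxidase, formed a tight group. Log2 fold changes were -1.47 for Gm29216, -1.46 for Gm13340, -1.47 for Gm28661 and -1.50 for Gm28437 (SE 0.33 to 0.34, limma adjusted p = 0.167 for each). Quantile normalization, which gives every rank the same value in all libraries, reduced them to -0.68, -0.84, -0.76 and -0.72. Gm29216 and Gm13340 both match mt-Co1 and moved alike although they lie on different chromosomes, with a log2 ratio between 0.47 and 0.71 over the 16 libraries. Gm28661 (mt-Co2) was at 593780, 953791, 304749 and 439738 in the CON-LFD libraries and at 161279, 187268, 206606 and 206626 in DIO-HFD. No DIO-HFD library reached the lowest control. Gm10925, the copy of mt-Atp6 (a subunit of the proton channel of ATP synthase, complex V), was at 1145355, 1458214, 486404 and 741286 in CON-LFD and at 238527, 274570, 313436 and 309192 in the DIO-HFD libraries (log2 change -1.64, SE 0.36, adjusted p = 0.167 by limma).

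**Figure D3:**
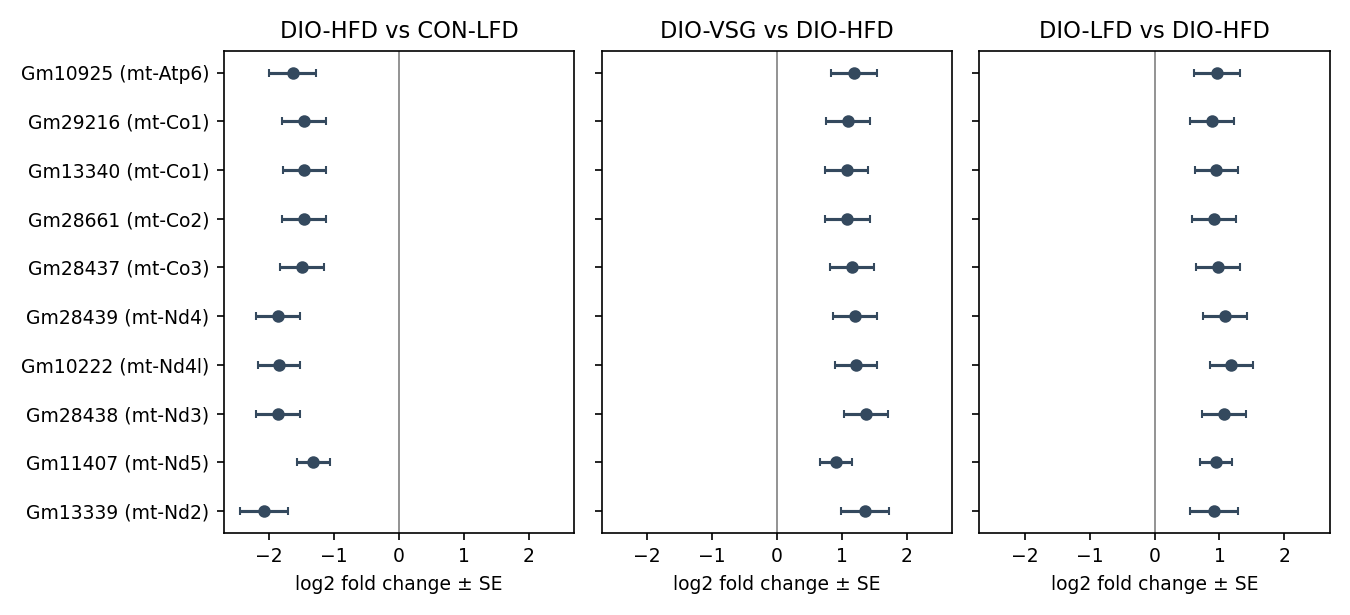
Log2 fold change (x axis, ± SE from limma) of each copy (y axis, with the mitochondrial gene it matches) in DIO-HFD vs CON-LFD, DIO-VSG vs DIO-HFD and DIO-LFD vs DIO-HFD. All 10 copies lie left of 0 in the first comparison (-2.08 to -1.32) and right of 0 in the others (0.91 to 1.38 and 0.89 to 1.18), all 3 of which use the same DIO-HFD libraries.

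The next comparisons set the groups with weight loss by surgery or by diet against the obese state. Both groups had also left the high-fat diet, so weight loss and the diet change cannot be told apart. For DIO-VSG against DIO-HFD, surgery and the diet change cannot be told apart either. Relative to DIO-HFD, all 10 copies were higher in DIO-VSG, by 1.88-fold (Gm11407) to 2.60-fold (Gm28438), without overlap between the groups, which held for 2.37% of all genes. None passed the adjusted threshold in limma (adjusted p from 0.243 to 0.274, 0 genes called, 0% of all genes), while all 10 were under an unadjusted p of 0.05, as were 5.05% of all genes in the higher direction. The median log2 fold change was 1.18 for the copies and 0.02 for all genes. DIO-VSG values of Gm10925 were 517598, 443872, 1061032 and 711879 normalized counts (log2 change 1.19, SE 0.36, adjusted p = 0.274 by limma). With quantile normalization Gm10925 was at 0.53, Gm29216 at 0.63 and Gm28661 at 0.65. The third of these libraries was the highest of its group for all 10 copies. Those of Gm28438 were 30248, 24367, 60398 and 41565 (1.38, SE 0.34, limma adjusted p = 0.243), and those of Gm13339 were 23341, 19124, 49145 and 26270 (1.36, SE 0.37, limma adjusted p = 0.246).

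All 10 copies were also higher in DIO-LFD than in DIO-HFD, by 1.86-fold (Gm29216) to 2.27-fold (Gm10222), again without overlap (3.01% of all genes). None passed the adjusted threshold in limma (adjusted p from 0.357 to 0.523, 0 genes called, 0% of all genes). All 10 had an unadjusted p under 0.05, with 5.37% of all genes in the higher direction, and their median log2 fold change was 0.95 against 0.01. The count under 0.05 fell to 7 copies without DIO-LFD replicate 2 (5.95% of all genes in either direction). It was 8 without DIO-LFD replicate 4 (6.9%) or DIO-HFD replicate 1 (8.07%). Gm10925 was at 454002, 712133, 422040 and 660378 normalized counts in the DIO-LFD libraries (log2 change 0.96, SE 0.36, adjusted p = 0.496 by limma), and quantile normalization brought it to 0.48 and Gm29216 from 0.89 to 0.51. Gm10222 was at 49667, 75041, 46274 and 75330 (1.18, SE 0.33, limma adjusted p = 0.409). Gm13339 had 13704, 27430, 14809 and 30526, so that replicates 1 and 3 stood only just above the highest DIO-HFD library, at 11869 (0.92, SE 0.37, limma adjusted p = 0.523). Gm11407 was the most even, at 17301, 16559, 13385 and 18074 (0.95, SE 0.25, limma adjusted p = 0.357).

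All 10 copies, in all 4 DIO-HFD libraries, were lower than in any of the other 12 libraries. Over all genes tested this ordering was found for 93, which is 0.438%. As a ratio, the margin was widest for Gm10222 (30559 in the highest DIO-HFD library, 46264 in the lowest of the others) and narrowest for Gm13339 (11869 and 13704).

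Surgical and dietary weight loss were compared next, and the groups overlapped for all 10 copies, as they did for all but 18.8% of the genes tested. Log2 fold changes between DIO-VSG and DIO-LFD were from -0.04 (Gm11407, SE 0.25) to 0.44 (Gm13339, SE 0.37), and each but that of Gm13339 was smaller than its standard error (limma adjusted p from 0.610 to 0.965). By unadjusted p, 0 copies were under 0.05, against 9.71% of all genes, and 0 past the adjusted threshold (0% of all genes). The direction was not stable, as 6 copies were higher in DIO-VSG with all libraries and lower by value without DIO-VSG replicate 3. With 4 libraries a group, these standard errors leave room for a difference in either direction.

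Compared with CON-LFD, all 10 copies were lower by value in both weight loss groups, with overlap for each copy, although with quantile normalization Gm28437 (0.08) and Gm13340 (0.11) were higher in DIO-VSG and Gm10925 was at 0.00. In DIO-VSG log2 fold changes ran from -0.72 (Gm13339) to -0.34 (Gm28437), limma adjusted p from 0.309 to 0.578, and 0 copies had an unadjusted p under 0.05 (17.8% of all genes did), 0 passed the adjusted threshold (0% of all genes), and the groups did not overlap for 7.02% of all genes. It was 5 copies without CON-LFD replicate 3, where the share of all genes was 30.5%, 3 copies without DIO-VSG replicate 3, where it was 13.3%, and 4 copies with library weights, where it was 37.4%. In DIO-LFD log2 fold changes ran from -1.16 (Gm13339, SE 0.37, unadjusted p = 0.00761, limma adjusted p = 0.587) to -0.37 (Gm11407). Gm13339, Gm28438 and Gm28439 were under an unadjusted p of 0.05, as were 6.26% of all genes, while 0 copies passed the adjusted threshold (0.00471% of all genes, 1 gene) and 3.53% of all genes did not overlap. The count was not stable, being 10 without CON-LFD replicate 3 (12.5% of all genes) and 1 without CON-LFD replicate 1 or 2 or DIO-LFD replicate 1 or 3 (3.96% to 6.62% of all genes). With all 16 libraries kept it was 9 with library weights (17% of all genes) and 1 with the replicate number as a block (5.77%). With the 8 libraries of the 2 groups alone it was 1 as well (4.9%).

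The copies varied together over the libraries. Over the 45 pairs, Pearson's r of log2 levels across the 16 libraries, a description of points that share their libraries and normalization, was between 0.902 (Gm13339 with Gm11407) and 0.996, and between 0.975 and 0.996 for the 21 pairs within the chromosome 1 block. The SD of a copy's log2 level over the libraries was 0.61 to 0.93, and that of the log2 ratio of 2 copies was 0.06 to 0.46. Gm28661 and Gm28437 had the steadiest ratio (SD 0.06), and Gm13339 and Gm11407 the least steady, with a log2 ratio from -0.34 to 1.44.

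Within the summed copies, the balance between complexes differed between groups. Complex I copies (5 of the 10) held 20.8%, 18.1%, 18.3% and 19.7% of the reads of the 10 copies in CON-LFD and 15.2%, 15.9%, 16.3% and 16.2% in DIO-HFD. Values were 16.7%, 17.2%, 17.1% and 18.3% in DIO-LFD and 17%, 17%, 16.7% and 16.5% in DIO-VSG. All DIO-HFD libraries were under all others, by a narrow margin at the closest (16.3% in DIO-HFD replicate 3 and 16.5% in DIO-VSG replicate 4), while CON-LFD overlapped with DIO-LFD replicate 4. Means were 19.2% ± 1.28, 15.9% ± 0.514, 17.3% ± 0.667 and 16.8% ± 0.233 (SD, n = 4 each, the widest 95% Wilson interval of a single share being 0.16 percentage points), and no test was run. Complex IV copies held 56.8% ± 2.68 in CON-LFD and 61.1% ± 0.553 in DIO-HFD, and the complex V copy Gm10925 24.0% ± 1.45 and 23.0% ± 0.397. Gm28439 accounted for most of the complex I difference, at 13.4% ± 1.22 in CON-LFD and 11.0% ± 0.492 in DIO-HFD. Gm10222 went the same way (2.60% ± 0.0908 and 2.15% ± 0.0766), as did Gm13339 (1.24% ± 0.115 and 0.874% ± 0.0504), whereas Gm11407 went the other way (0.572% ± 0.0466 and 0.685% ± 0.0629).

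**Figure D4:**
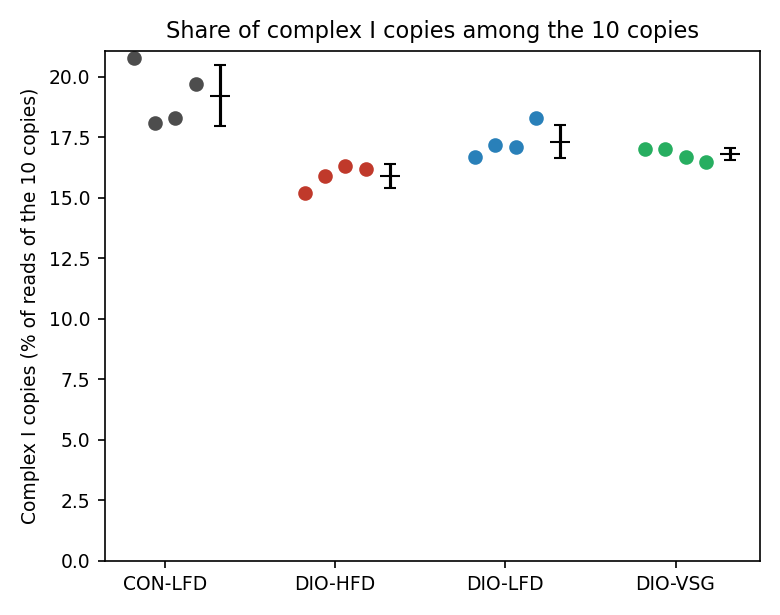
Percent of the reads of the 10 copies that was assigned to the 5 copies of complex I genes (y axis) in each library (points) of the 4 groups (x axis), with the group mean and SD in black (n = 4). DIO-HFD libraries lie between 15.2% and 16.3% and CON-LFD libraries between 18.1% and 20.8%.

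The other 5 listed matches gave similar directions. In DIO-HFD vs CON-LFD, Gm4076 (log2 fold change -1.60, SE 0.27), Gm13341 (-1.71, SE 0.29), Gm11410 (-1.89, SE 0.34) and Gm11408 (-1.53, SE 0.28) did not overlap between groups, with limma adjusted p from 0.0602 to 0.0676. Gm11512, which is near the lower limit of detection, overlapped (-1.16, SE 0.50, limma adjusted p = 0.355). The 4 that did not overlap were also higher without overlap in DIO-VSG (1.04 to 1.57) and DIO-LFD (0.89 to 1.58) than in DIO-HFD. Gm11408 matches mt-Nd6, the one mitochondrial protein gene encoded on the opposite strand from all others.

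Nuclear OXPHOS genes were examined as a list of 72 subunit genes. Besides the complexes matched by the copies, the list holds genes of complexes II and III, which none of the copies match. In DIO-HFD vs CON-LFD all 72 had negative log2 fold changes (median -0.47, against 0.02 for all genes), 48 with an unadjusted p under 0.05 (7.66% of all genes were lower at that level) and 0 past the adjusted threshold. In DIO-LFD vs DIO-HFD all 72 were positive (median 0.48), 55 under an unadjusted p of 0.05 (5.37% of all genes), and in DIO-VSG vs DIO-HFD 71 were positive (median 0.39), 23 under 0.05 (5.05%). None passed the adjusted threshold in either. Cox7c, a small subunit of cytochrome c oxidase, had a mean of 3426 ± 768 normalized counts in the CON-LFD libraries and 2107 ± 273 in the DIO-HFD libraries (SD, n = 4, log2 change -0.68, adjusted p = 0.176 by limma). Atp5c1, the gamma subunit of ATP synthase, was at 11130 ± 1711 and 7527 ± 881 (-0.56, limma adjusted p = 0.176). Atp5g3, an ATP synthase ring subunit, was at 6741 ± 1490 in DIO-HFD and 9632 ± 1076 in DIO-LFD (0.53, limma adjusted p = 0.409), and Ndufa2, of complex I, at 1740 ± 278 and 2420 ± 113 (0.49, limma adjusted p = 0.436).

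By value, the groups differed more in the copies than in these nuclear genes. The summed normalized count of the copies divided by that of the 72 nuclear genes was 9.84, 10.3, 6.7 and 8.0 in CON-LFD and 4.29, 3.9, 3.8 and 4.5 in DIO-HFD. It was 5.62, 6.46, 4.69 and 6.40 in DIO-LFD and 6.76, 5.91, 8.48 and 7.25 in DIO-VSG. All DIO-HFD libraries were again below all 12 others, with means of 8.70 ± 1.66, 4.12 ± 0.330, 5.79 ± 0.829 and 7.10 ± 1.07 (SD, n = 4, no test run). The nuclear list by itself did not separate DIO-HFD: DIO-HFD replicate 3 had a summed nuclear OXPHOS count of 359830, above CON-LFD replicate 3 (308721) and DIO-VSG replicates 1 (325453) and 2 (324696), while its copies summed to 1366183 against 2068515, 2200497 and 1919423.

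**Figure D5:**
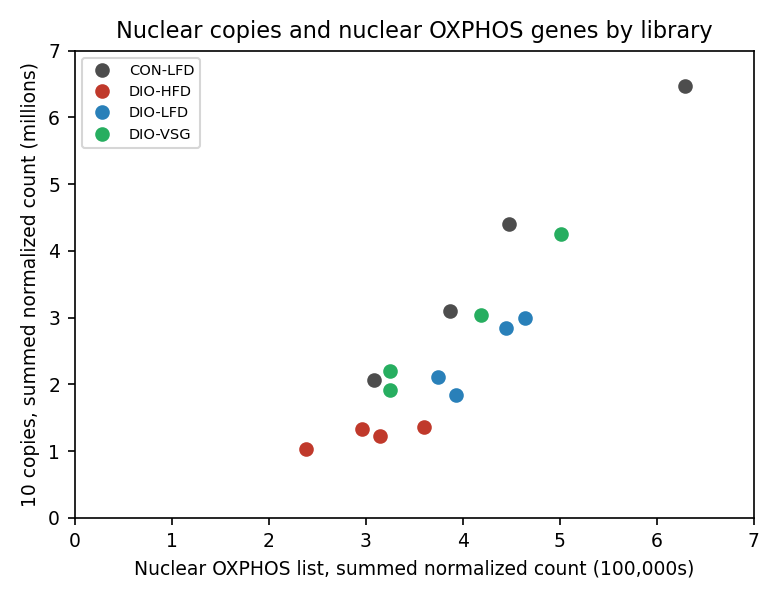
Summed normalized count of the 10 copies (y axis) against that of 72 nuclear OXPHOS genes (x axis) in each of the 16 libraries, colored by group. DIO-HFD libraries have the lowest values on the y axis but share their x range with CON-LFD and DIO-VSG libraries.

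Of 30 nuclear genes for mitochondrial transcription, RNA processing, RNA stability and maintenance of mitochondrial DNA, 27 were tested. Fastkd4, Prorp and Twnk were not listed under these symbols. In DIO-HFD vs CON-LFD 5 were lower at an unadjusted p under 0.05, against 7.66% of all genes, and 0 higher (median log2 fold change -0.14). In DIO-LFD and in DIO-VSG vs DIO-HFD 4 each were higher, against 5.37% and 5.05% of all genes, and 0 lower (medians 0.09 and 0.15). None passed the adjusted threshold. Hsd17b10, a subunit of mitochondrial RNase P, which cuts transfer RNAs out of the precursors, was at 2913 ± 460 in CON-LFD, 2024 ± 331 in DIO-HFD and 2806 ± 367 in DIO-LFD (limma adjusted p = 0.215 for the first pair and 0.446 for the second). Fastk, whose mitochondrial form stabilizes the mt-Nd6 message, was at 2895 ± 265, 2462 ± 69.5 and 2867 ± 190 (limma adjusted p = 0.279 and 0.502).

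Of 26 genes of mitochondrial biogenesis and mass, 12 were lower and 0 higher at an unadjusted p under 0.05 in DIO-HFD vs CON-LFD (median -0.35), where 7.66% of all genes were lower at that level. Against DIO-HFD, 2 were higher in DIO-LFD (median 0.26), near the 5.37% of all genes, and 3 in DIO-VSG (median 0.16, with 5.05% of all genes). None passed the adjusted threshold in any of these. Cs, citrate synthase of the mitochondrial matrix, was at 23705 ± 6960 in CON-LFD, 13789 ± 2885 in DIO-HFD and 21820 ± 4231 in DIO-LFD (limma adjusted p = 0.246 and 0.478). Ppargc1b, a coactivator of mitochondrial biogenesis, was at 658 ± 312 in CON-LFD and 349 ± 72.9 in DIO-HFD (limma adjusted p = 0.260). Mdh2, mitochondrial malate dehydrogenase, was at 8280 ± 1792 in DIO-HFD and 11487 ± 1112 in DIO-LFD (limma adjusted p = 0.553).

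Among 13173 named genes with a mean of at least 100 normalized counts and no mitochondrial match, those whose log2 level followed the summed copies most closely over the 16 libraries were Dnajc15 (Pearson's r 0.977, Spearman's rho 0.965), Ndufv2 (0.976 and 0.953), Uqcrc2 (0.965 and 0.926), Oxnad1 (0.956 and 0.921) and Atp5c1 (0.956 and 0.941). Over the 12 libraries without DIO-HFD, r was 0.957, 0.970, 0.946, 0.914 and 0.934. These values describe genes picked for likeness, in libraries that share their normalization, and carry no p. Ndufv2 encodes a subunit of complex I, Uqcrc2 of complex III and Atp5c1 of ATP synthase, and Dnajc15 encodes a protein of the inner mitochondrial membrane.

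Markers of thermogenic adipocytes and skeletal muscle, both rich in mitochondria, and of mammary epithelium were set beside the copies. The thermogenic adipocyte list (10 of 10 listed, none at 0 in a whole group) summed to between 4070 and 69768 normalized counts in the control libraries, 1252 and 4839 in DIO-HFD, 7075 and 14253 in DIO-LFD and 3126 and 48654 in DIO-VSG, and all 10 genes were lower in DIO-HFD than in CON-LFD (7 at an unadjusted p under 0.05, as were 7.66% of all genes, and 0 adjusted). All 10 were higher than in DIO-HFD in DIO-LFD (3 at an unadjusted p under 0.05, against 5.37% of all genes) and in DIO-VSG (2, against 5.05%), with 0 adjusted. CON-LFD replicate 2 and DIO-VSG replicate 3, with the highest shares of the copies, also had the highest sums. By this sum, CON-LFD replicate 3 (4070) and DIO-VSG replicates 1 (3934) and 2 (3126) lay within the DIO-HFD range. Their copies held 4.18%, 4.52% and 3.89% of reads, above the 2.82% of the highest DIO-HFD library. The sum is weighted to abundant genes. By the mean log2 level of the list, each gene centered on its own mean, CON-LFD replicate 3 (-0.79) lay above all DIO-HFD libraries (-2.93 to -1.06). DIO-VSG replicates 1 (-1.16) and 2 (-1.6) lay within that range. Skeletal muscle markers summed to between 952 and 3283 in DIO-HFD, 2639 and 38385 in CON-LFD, 1493 and 167595 in DIO-LFD and 559 and 28452 in DIO-VSG. All 12 were lower by value in DIO-HFD than in CON-LFD (median log2 fold change -2.42), and 12 were higher in DIO-LFD (2.25) and 11 in DIO-VSG (1.94) than in DIO-HFD. In each of these, 1 of 12 had an unadjusted p under 0.05 (7.66%, 5.37% and 5.05% of all genes), with 0 adjusted. In each group 1 library was far above the others: CON-LFD replicate 4 (38385, others 2639 to 4815), DIO-LFD replicate 4 (167595, others 1493 to 2113) and DIO-VSG replicate 2 (28452, others 559 to 3427). DIO-VSG replicate 3 had the lowest muscle sum of all 16 libraries and the second highest share of the copies, 8.08%. Mammary epithelium markers (11 of 12 listed, Wap not being listed, and none of the 11 at 0 in a whole group) summed to between 34397 and 76830 in DIO-HFD, 53535 and 107361 in CON-LFD, 54988 and 140982 in DIO-LFD and 53129 and 80369 in DIO-VSG, so that DIO-HFD overlapped with each group. Of the 11, 3 were lower in DIO-HFD than in CON-LFD at an unadjusted p under 0.05 (7.66% of all genes), 6 were higher in DIO-LFD (5.37%) and 1 in DIO-VSG (5.05%) than in DIO-HFD, with 0 adjusted. Adipocyte markers (12 of 12 listed) summed to between 745481 and 2098254 in DIO-HFD and between 1064964 and 2409850 in the other groups. By value, 10 of 12 were lower in DIO-HFD than in CON-LFD (median log2 fold change -0.44, 0 under an unadjusted p of 0.05). In DIO-LFD 10 were higher than in DIO-HFD (0.33, 2 under 0.05, against 5.37% of all genes). In DIO-VSG 6 were higher and 6 lower than in DIO-HFD (-0.02, 1 lower under 0.05), with 0 adjusted in each. Markers of B cells, T cells and macrophages were also uneven (12 of 12 listed for each, none at 0 in a whole group). B cell markers summed to between 1474 and 186541 in CON-LFD, 9300 and 272023 in DIO-HFD, 45453 and 90462 in DIO-LFD and 138123 and 185716 in DIO-VSG. T cell markers summed to between 1518 and 37078, 1596 and 55049, 10086 and 21473, and 31864 and 50716 in the same order. By value, all 12 B cell and all 12 T cell markers were higher in DIO-VSG than in DIO-HFD (median log2 fold change 2.75 and 2.20), and 11 of 12 macrophage markers were lower (-0.65), with 1 macrophage marker and 0 of the others under an unadjusted p of 0.05. In DIO-HFD vs CON-LFD, where the copies were lower, all 12 B cell and all 12 T cell markers were higher by value (1.12 and 0.66). DIO-HFD replicate 1 had the highest B cell and T cell sums of all 16 libraries and the lowest share of the copies, whereas DIO-HFD replicates 2 and 3 had low sums (9300 and 14360 for B cells) and shares of 2.36% and 2.50%. The part of these cell types in the levels of the copies was not tested beyond these values.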

How the data were processed

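Total RNA of 16 contralateral mammary fat pads was sequenced as stranded paired-end libraries of 76 bases. The study's methods name STAR and salmon with a Gencode annotation, the submitters' processing notes TopHat2 2.0.7, HTSeq 0.5.3p9 and DESeq2 on mm10, and which made the table was not settled. The authors deposited DESeq2 variance-stabilized values on a log2 scale (5.36 to 21.85). These were inverted to normalized counts. Dividing by the step of 1 read gave whole reads for 100% of values (tolerance 0.01). The 21218 genes that reached 10 normalized counts in 4 or more libraries were tested on log2(normalized count + 1) with limma 3.58.1 (R 4.3.3) over all 16 libraries, group as the only term, two-sided, with Benjamini-Hochberg adjustment over all genes and a threshold of 0.05. Fold changes are on this scale. The procedure was tested on simulated data. Copies were matched to mitochondrial transcripts of GENCODE M21 (GRCm38) with blastn 2.17.0, and 95.9% of listed genes had a sequence. The annotation release of the table is not given in the sources used here. Named beside the copies were other mitochondrial matches, genes most like the summed copies, and the 2 lowest p of each mitochondrial list in 2 comparisons (DIO-HFD vs CON-LFD and DIO-LFD vs DIO-HFD). The copies and lists were chosen with earlier results of these data known.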

Additional observations from a re-analysis of the deposited data

Results flagged for a closer look

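In 104 sets of 4 libraries (the summed share, each copy's level and share of the summed copies, and the levels of the other 5 matches, in each group), 1 library stood apart from the other 3 by Dixon's ratio, and chance alone sets apart about 1 set in 20. Gm13339 was at 8533 normalized counts in DIO-HFD replicate 1, against 11388 to 11869 in the other 3 DIO-HFD libraries (ratio 0.856). This library had the lowest level of its group for all 10 copies and, at 2.23%, the lowest share of reads of all 16 libraries.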

How the results depend on the processing

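Every copy kept its direction in DIO-HFD vs CON-LFD, DIO-VSG vs DIO-HFD and DIO-LFD vs DIO-HFD under all 27 alternatives (another pseudocount, filter, scale, normalization, limma-voom, library weights, 2 groups alone, the block, 16 fits without 1 library). Log2 fold changes ran from -2.39 to -0.53, from 0.53 to 1.58 and from 0.48 to 1.31, the smallest with quantile normalization. With library weights, 10, 10 and 5 copies passed the adjusted threshold in place of 0, as did 19.8%, 17.6% and 8.54% of all genes; the cause was not tested. Fits without 1 library called 0 to 10 copies in the first comparison (10 without CON-LFD replicate 3) and 0 in the others. No other alternative called a copy. With limma-voom, 0 of all genes were called in DIO-HFD vs CON-LFD in place of 8. In DIO-VSG vs CON-LFD, quantile normalization turned the sign of Gm28437 (0.08) and Gm13340 (0.11) and left Gm10925 at 0.00. In DIO-VSG vs DIO-LFD the sign of 7 copies changed, 6 of them only in fits without 1 library. Over those fits log2 fold changes ran from -0.00 to 0.42 (Gm10925), -0.07 to 0.33 (Gm28661), -0.04 to 0.36 (Gm28437), -0.09 to 0.29 (Gm28439), -0.05 to 0.26 (Gm13340), -0.20 to 0.17 (Gm10222) and -0.15 to 0.06 (Gm11407), the lowest without DIO-VSG replicate 3 and the highest without DIO-VSG replicate 2 for each. Gm11407 also turned with scaling to the other genes (0.02), quantile normalization (0.02) and library weights (0.04). Replicate numbers gave no clear pairing of the samples (correlation of same-numbered deviations -0.61 to 0.53, median 0.02). As 7 of 16 libraries were closest to a library of their own number in another group, pairing is not excluded. With the replicate number as a block 0 copies were called in each comparison (10 of 10 still under an unadjusted p of 0.05 in the first 3). Mean shares without 1 library were 5.83% to 8.17% in CON-LFD.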
